A study of Mus musculus with 5 samples.

Results

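The DEAD and DEAH box RNA helicases were examined in pro-B cells with and without *Mef2c*. The genes were chosen by name, as those with a symbol that starts with Ddx or Dhx followed by a digit and a probe set that the annotation gives to that gene alone, and the Y-linked *Ddx3y* was left out. The rule gave 50 of the 17325 genes tested, 35 Ddx and 15 Dhx genes, each measured by 1 probe set. Pro-B cells, sorted by FACS as B220+IgM-CD43+CD24+ bone marrow cells of 9-month-old mice, were measured on 5 Affymetrix arrays, of which 3 were of control mice and 2 of Vav-Cre *Mef2c* fl/fl mice. The Vav promoter drives Cre in haematopoietic cells, so that *Mef2c*, which encodes a MADS-box transcription factor, is deleted in blood cells of all lineages. Controls carried *Mef2c* fl/fl or *Mef2c* fl/+ without Cre, or Vav-Cre with *Mef2c* fl/+, so some control mice may carry Cre and a single deleted allele, and no source used here says which of these genotypes each control array holds. Mice of both sexes were used in the study, and the sex of each array's mice, and whether animals were pooled for an array, are not given either. P-values therefore measure the spread between these arrays.

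DEAD and DEAH box proteins are ATPases named after the amino acids of a conserved motif with which they hydrolyse ATP. DEAD box proteins pull short RNA duplexes apart locally and act as clamps or chaperones on RNA, whereas DEAH box proteins move along RNA and pull on it from a distance. Nearly every step in the life of an RNA uses one of them, including the remodelling of the spliceosome, mRNA export, ribosome synthesis in the nucleolus, the start of translation, decapping and the detection of viral RNA. Most are expressed in all dividing cells, while a few are restricted to germ cells or induced by interferon. Pro-B cells are the stage at which the immunoglobulin heavy chain locus is rearranged.

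The *Mef2c* transcript itself was measured at 14006, 20854 and 17220 on the control arrays and at 7379 and 6219 on the *Mef2c*-deficient arrays, which did not overlap (2.53-fold lower, limma adjusted p = 0.092). All 10 measured of 13 pro-B cell markers were above the array median on all 5 arrays, with sums of 918282 to 1504910 on the control arrays and of 1230464 and 650964 on *Mef2c*-deficient replicates 1 and 2. All 10 myeloid markers were also above the array median on all 5 arrays, with sums of 2241786 to 4589862 and of 2460035 and 5129472. The 10 measured T and NK cell markers summed to 18883 to 37912 on the control arrays and to 17929 and 60785 on *Mef2c*-deficient replicates 1 and 2. *Cd3e*, which defines T cells, was at 13843 on *Mef2c*-deficient replicate 2 and at 232 to 387 on the other arrays, and on the same array *Ebf1*, a B-lineage transcription factor, was at 3026 against 29295 to 35416 elsewhere. The lists did not move as one on that array. Of the 10 T and NK cell markers 6 were at their highest there and 1, *Zap70*, at its lowest, and of the 10 pro-B cell markers 4 were at their lowest (*Blnk*, *Cd24a*, *Ebf1* and *Il7r*) and 1, *Ptprc*, at its highest. The 5 measured erythroid markers summed to 41918 to 73263 on the control arrays and to 19512 and 16982 on the *Mef2c*-deficient arrays, and of these *Klf1* and *Epor* were below the array median on all 5 arrays. *Car2* makes up most of that sum and fell, from 41123 to 72524 to 18010 and 12357, while *Slc4a1*, the band 3 anion exchanger of red cells, rose from 188 to 234 to 855 and 2188, and *Alas2* was at 2200 on *Mef2c*-deficient replicate 2 and at 375 to 380 on the other arrays. The 7 measured markers of plasmacytoid dendritic cells summed to 116328 to 359362 on the control arrays and to 266874 and 214641 on the *Mef2c*-deficient arrays. On *Mef2c*-deficient replicate 2, 4 of them were at their highest (*Bst2*, *Cox6a2*, *Irf8* and *Klk1*) and 1, *Spib*, at its lowest. *Tcf4* was at 49.6 to 142 on the control arrays and at 1001 and 249 on the *Mef2c*-deficient arrays. Of the 10 myeloid markers 5 were at their highest on replicate 2 and 0 at their lowest. The 14 probe sets for bacterial control RNAs, which are added in fixed amount before hybridisation, had a median deviation of 2.05 on the log2 scale on *Mef2c*-deficient replicate 1, of 0.25 on replicate 2 and of -1.54 to 0 on the control arrays. The part of these differences between arrays in the helicase results was not tested beyond leaving out each array.

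Values were compared on the log2 scale of the deposited intensities. A gene was called lower or higher where the values differed 2-fold or more and the unadjusted limma p was 0.05 or less. These are the numbers the study's text gives as thresholds for its pre-B cell arrays. The deposited values appear to be e raised to the log2 signal of the arrays, in which case a signal difference of 1.62-fold appears as 2-fold in the deposited values. Fold changes here are of the deposited values. At a fold of 2 in signal 10 helicase genes fell (20%) and 1 rose, where 10.6% of all genes fell and 4.34% rose. Of the 50 helicase genes, 16 fell in *Mef2c*-deficient pro-B cells (32.0%), where 16.7% of all genes tested fell. A single helicase gene rose, *Ddx39b* (2.0%), where 9.65% of all genes rose. The remaining 33 genes were not called. No call passed correction over all genes, since 0 of the 50 had an adjusted p under 0.05 and the smallest was 0.0897, and likewise 0 of all 17325 genes did. At an unadjusted p under 0.05 there were 18 of the 50 helicase genes and 5593 of all 17325 genes, so in both directions together the shares were close. Of these helicase genes 17 were lower (34%, against 19.0% of all genes) and 1 was higher (against 13.3% of all genes). In bulk samples such as these, fewer cells of a type and less RNA per cell cannot be told apart.

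The log2 fold change was negative for 39 of the 50 genes, against 48.7% of all genes, and both *Mef2c*-deficient arrays lay below all 3 control arrays for 27 genes and above them for 3. Together 60% of the helicase genes had groups that did not overlap, against 54.3% of all genes. By direction, both *Mef2c*-deficient arrays lay below all 3 control arrays for 4920 of all 17325 genes and above them for 4479. The family's median log2 fold change was -0.997, from -2.68 to 1.57, while that of all genes was 0.04. The Ddx genes (11 of 35 fell, median -0.85) and the Dhx genes (5 of 15 fell, median -1.15) both had negative medians. By array, the median deviation of the 50 genes from their own means was 0.32, 0.25 and 0.44 on the control arrays and -0.39 and -0.53 on the *Mef2c*-deficient arrays, on the log2 scale.

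**Figure D1:**
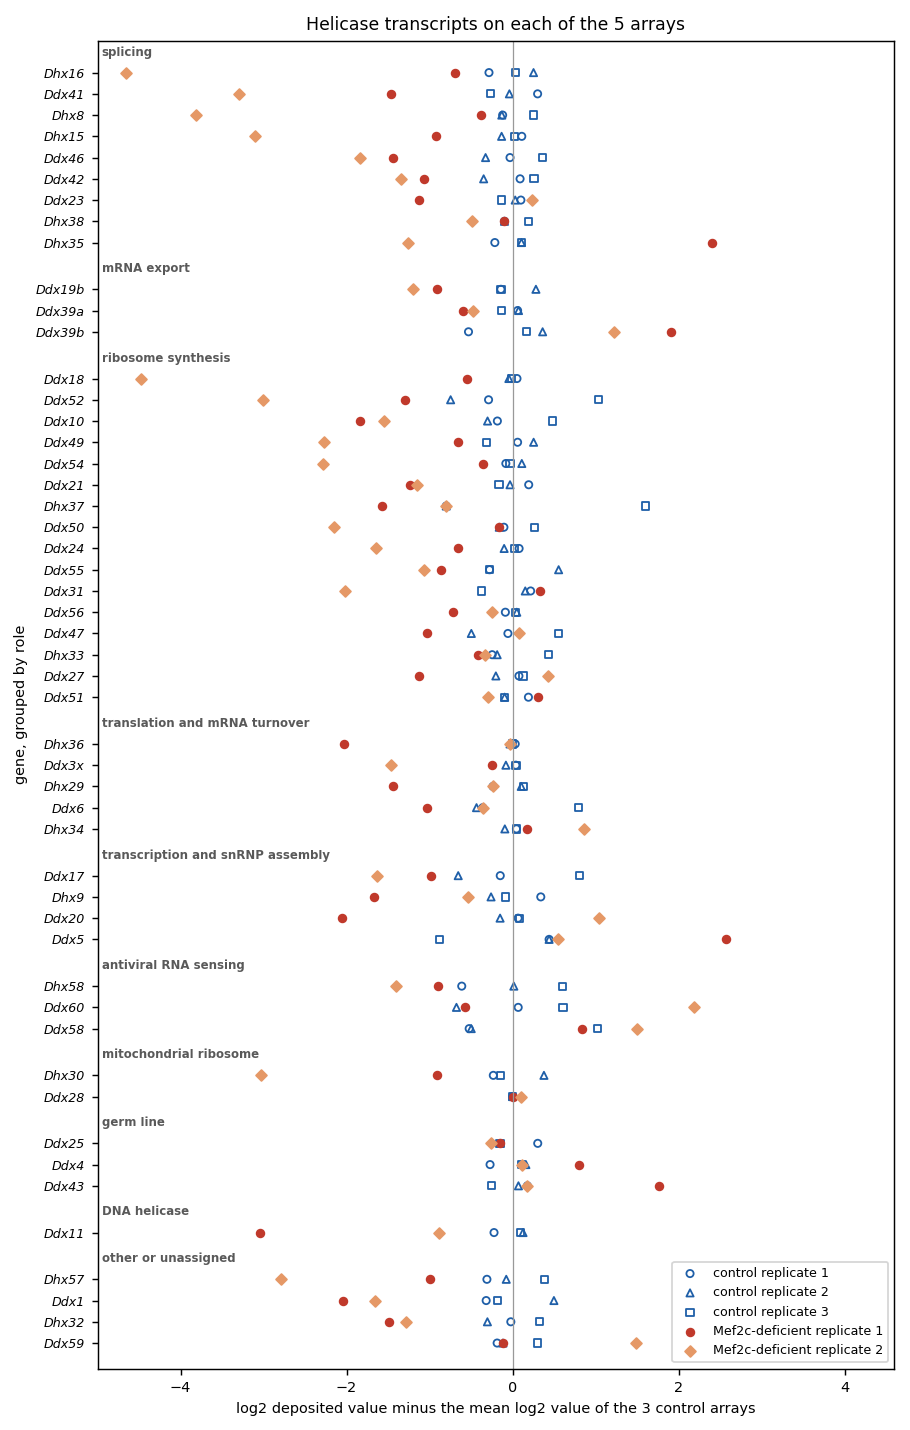
Each row is a helicase gene, grouped by role, and each point is an array, with the log2 deposited value relative to the mean of the 3 control arrays on the x axis (open blue symbols, control; filled symbols, *Mef2c*-deficient). For 27 of the 50 genes both filled symbols lie to the left of all open ones, as was so for 4920 of all 17325 genes tested. The 2 *Mef2c*-deficient arrays lie far apart for genes such as *Dhx16*, *Ddx18* and *Dhx35*.

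Other genes of the same level were shifted too. Genes were put in 10 equal groups by their mean log2 value over the 5 arrays, and 42 of the 50 helicase genes were in the upper 5 groups. Over all genes, the median log2 fold change was 0.62 in the dimmest group, 0.03 in the sixth, -1.002 in the eighth, -1.10 in the ninth and -0.91 in the brightest, and the share that fell was 0.173%, 15.6%, 34.1%, 40.9% and 32.8% in these same groups. When all genes were weighted by level as the helicase genes are, 26.4% fell and 4.88% rose, next to 32.0% and 2.0% of the helicase genes. Compared with the median of its own level group, 30 of the 50 helicase genes lay lower, by a median difference of -0.18 over the family.

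**Figure D2:**
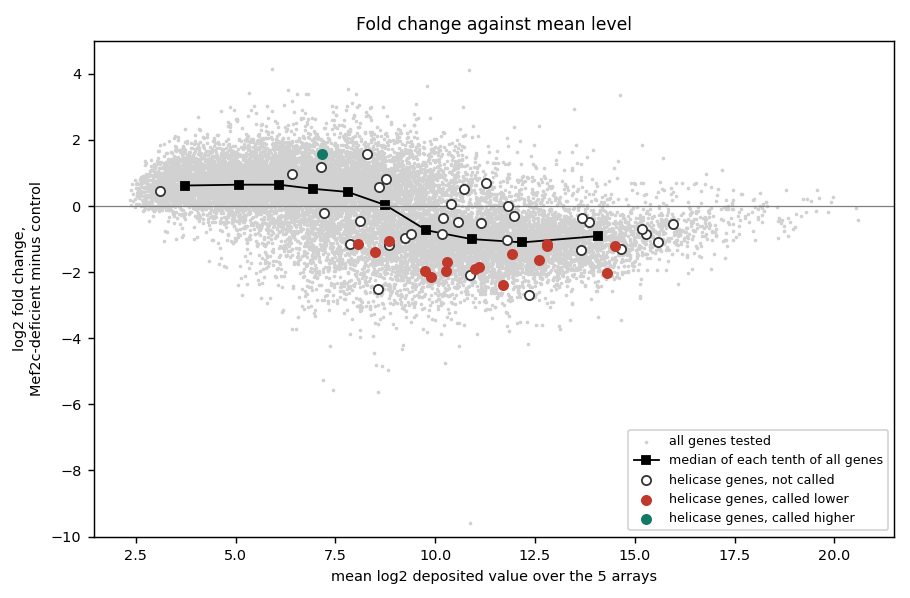
The log2 fold change of every gene tested (grey, y axis) is plotted against its mean log2 deposited value over the 5 arrays (x axis), with the 50 helicase genes as large circles coloured by their call. The line of squares gives the median of each of 10 level groups, which runs from 0.62 on the left to -1.10 in the ninth group, and 30 of the 50 circles lie below the median of their own group.

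*Ddx1* (RefSeq GRCm38.p6, chr12:13219307-13249174) encodes a helicase of the complex that ligates spliced tRNA. Its probe set was at 2937, 5171 and 3231 on the control arrays and at 888 and 1162 on the *Mef2c*-deficient arrays. Both *Mef2c*-deficient values were well below the lowest control value (3.60-fold lower, log2 fold change -1.85, standard error 0.36, limma adjusted p = 0.090). *Ddx41* (chr13:55530410-55536658) encodes a helicase of the catalytic spliceosome that also binds DNA in the cytosol. It was at 7869, 6216 and 5318 on the control arrays and at 2304 and 652 on the *Mef2c*-deficient arrays. The groups did not overlap although the 2 *Mef2c*-deficient arrays were far apart (5.21-fold lower, log2 fold change -2.38, standard error 0.59, limma adjusted p = 0.097). *Ddx1* and *Ddx41* fell under all 18 other settings that were tried, which holds for no other helicase gene. Not every setting could change a call. Each helicase gene had a single probe set, so the other uses of probe sets left its values as they were. Dropping the fold threshold cannot remove a call. *Ddx10* (chr9:53098454-53248170), required to process the rRNA of the small ribosomal subunit, fell under 17 of the 18 settings, the exception being the centring of arrays on housekeeping genes.

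The promoters of these 3 genes and of *Ddx39b*, the helicase gene that rose, are shown because the 3 fell under the most settings and *Ddx39b* went the other way. The sequences are from RefSeq (GRCm38.p6), run 5′ to 3′ on the strand of the gene and end at the base before the start listed with each window. For *Ddx10* that start lies inside the gene span given above. Capitals mark letters of the 5 motifs searched on both strands.
Ddx1, chr12:13249175-13249294, minus strand: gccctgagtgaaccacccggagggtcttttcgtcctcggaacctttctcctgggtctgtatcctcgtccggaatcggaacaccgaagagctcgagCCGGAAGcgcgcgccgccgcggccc
Ddx10, chr9:53248113-53248232, minus strand: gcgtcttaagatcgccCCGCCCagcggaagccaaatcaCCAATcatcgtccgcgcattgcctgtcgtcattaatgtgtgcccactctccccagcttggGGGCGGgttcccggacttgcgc
Ddx41, chr13:55536659-55536778, minus strand: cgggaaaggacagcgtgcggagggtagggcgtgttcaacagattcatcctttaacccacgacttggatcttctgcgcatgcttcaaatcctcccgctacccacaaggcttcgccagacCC
Ddx39b, chr17:35241626-35241745, plus strand: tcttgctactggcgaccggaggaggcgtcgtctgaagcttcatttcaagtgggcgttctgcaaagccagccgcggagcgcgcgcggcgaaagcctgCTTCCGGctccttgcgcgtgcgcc

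In the *Ddx1* and *Ddx39b* promoters the capitals are an ETS-type core (CCGGAAG, which reads CTTCCGG on the other strand). In that of *Ddx10* they are 2 GC boxes (GGGCGG, or CCGCCC on the other strand) and a CCAAT box (CCAAT). In that of *Ddx41* they are the first letters of a CCAAT box that runs over the start. A window of 300 bases, from 250 before to 50 after the start, was listed for 44 of the 50 genes, and all but *Ddx6*, *Ddx11*, *Ddx23*, *Ddx39a*, *Dhx38* and *Dhx58* had one. The ETS-type core was in a window of 19 of the 44 genes (43.2%), against 15.1% of the 13709 tested genes with a window and 9.93% of all 27025 genes. By call, it was in 4 of the 14 genes that fell and had a window (*Ddx1*, *Ddx10*, *Ddx49* and *Dhx30*) and in 15 of the other 30. The GC box was in windows of 31 of the 44 genes (70.5%; tested genes 57.0%, all genes 38.2%), the CCAAT box in 23 (52.3%; 42.0% and 41.1%) and the E box CACGTG in 6 (13.6%; 10.3% and 8.09%). The MEF2 motif was in 0 of the 44 genes, against 2.49% of tested genes, which says only that its letters are not in these windows. These shares are descriptions, and no motif was tested.

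Of the 9 splicing helicases measured, 4 fell (44.4%), next to 26.4% of all genes weighted by level as the whole family is. The medians of the level groups these 9 genes lie in had a median of -1.10. Splicing helicases drive the changes of shape by which the spliceosome assembles on an intron, cuts it out and comes apart. Those that fell were *Ddx41*, *Ddx42*, *Ddx46* and *Dhx15*, none rose and 8 had a log2 fold change below 0 (median -1.64). *Ddx46*, which acts when the U2 snRNP joins the branch point, was at 9515, 7759 and 12441 on the control arrays and at 3569 and 2713 on the *Mef2c*-deficient arrays. Each *Mef2c*-deficient value was below every control value (log2 fold change -1.64, standard error 0.32, limma adjusted p = 0.090). *Ddx42*, which also binds the U2 snRNP, was at 10652, 7858 and 11963 and at 4766 and 3945. Its groups were apart by less (-1.21, limma adjusted p = 0.097). *Dhx15*, which releases the intron lariat and takes the spliceosome apart, was at 37868, 31999 and 35587 on the control arrays and at 18489 and 4081 on the *Mef2c*-deficient arrays, so that both were lower but 4.53-fold apart (-2.01, limma adjusted p = 0.13).

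The splicing helicase with the lowest estimate was not called. *Dhx16*, which is needed just before the first catalytic step, was at 9003, 13059 and 11206 on the control arrays and at 6774 and 433 on the *Mef2c*-deficient arrays. Both were below the controls, but they were 15.6-fold apart (log2 fold change -2.68, standard error 1.17, limma adjusted p = 0.18). *Dhx8*, which releases the spliced mRNA, had the same form, with 3055 to 3973 on the control arrays and 2564 and 237 on the *Mef2c*-deficient arrays. *Ddx23* (-0.44) and *Dhx38* (-0.29) had estimates closer to 0, with groups that overlapped. *Dhx35* was at 286, 357 and 357 on the control arrays, above them at 1753 on *Mef2c*-deficient replicate 1 and below them at 139 on replicate 2. After a further quantile normalization of the arrays or cyclic loess, 1 splicing helicase fell and the median was -0.72 or -0.64.

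The mRNA export helicases did not move one way. DDX39B, also called UAP56, loads export factors onto spliced mRNA as part of the TREX complex, and DDX19B strips proteins from mRNA as it leaves the nuclear pore. *Ddx39b* (chr17:35241746-35253707) was at 63.8, 118 and 104 on the control arrays and at 347 and 215 on the *Mef2c*-deficient arrays. Both *Mef2c*-deficient values were above all control values, and the probe set was below the array median on all 3 control arrays (2.96-fold higher, log2 fold change 1.57, standard error 0.40, limma adjusted p = 0.0996). The call was lost without *Mef2c*-deficient replicate 1, with array weights and with replicate number as a block. In the level group of *Ddx39b*, the fourth, 16.5% of all genes rose and the median log2 fold change was 0.52. *Ddx19b* fell from 557, 746 and 557 to 326 and 267, just inside the fold threshold (2.08-fold lower, limma adjusted p = 0.10). *Ddx39a*, the close relative of *Ddx39b*, was at 66881 to 77047 on the control arrays and at 48299 and 52499 on the *Mef2c*-deficient arrays, and was not called (log2 fold change -0.54, limma adjusted p = 0.18). Its estimate turned to 0.32 after cyclic loess and to 0.27 with centring on housekeeping genes. A single probe set stands for each of the 2 relatives.

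Helicases of ribosome synthesis were the largest group. They act in the nucleolus, where they detach snoRNAs from rRNA and refold the precursors of both ribosomal subunits. Of 16 measured, 5 fell (*Ddx10*, *Ddx21*, *Ddx24*, *Ddx49* and *Ddx52*), none rose and 15 had a log2 fold change below 0 (median -1.16). The share that fell, 31.25%, was near the 26.4% of all genes weighted by level as the whole family is. The medians of the level groups these 16 genes lie in had a median of -0.82. *Ddx10* was at 1768, 1629 and 2808 on the control arrays and at 563 and 685 on the *Mef2c*-deficient arrays, which were close to each other and below every control (3.23-fold lower, limma adjusted p = 0.091). *Ddx21*, a nucleolar helicase that also senses the state of RNA polymerase I and II transcription, was at 36904, 31570 and 28795 and at 13673 and 14471. Its *Mef2c*-deficient arrays were the closest to each other among the helicase genes that fell, and both were under the lowest control (2.29-fold lower, limma adjusted p = 0.091).

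For the other 3 genes of this group that fell, *Mef2c*-deficient replicate 2 was the lower array. *Ddx52*, of the small subunit pathway, was at 1404, 1022 and 3515 on the control arrays and at 697 and 213 on the *Mef2c*-deficient arrays (log2 fold change -2.15, limma adjusted p = 0.14). *Ddx49* was at 6104, 6978 and 4709 and at 3724 and 1217 (-1.46, limma adjusted p = 0.15). *Ddx24*, of the large subunit pathway, was at 10379, 9160 and 9986 and at 6211 and 3137 (-1.15, limma adjusted p = 0.12). In all 3 genes the groups did not overlap, and none of the 3 was called without *Mef2c*-deficient replicate 2. *Ddx55*, which acts on the large subunit, lay just outside the fold threshold, with 655, 1167 and 655 on the control arrays and 439 and 379 on the *Mef2c*-deficient arrays (1.95-fold lower, limma adjusted p = 0.15).

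The uncalled members of the ribosome synthesis group took several forms. *Ddx18* and *Ddx54* had both *Mef2c*-deficient arrays below the controls but with replicate 2 far lower. *Ddx18* was at 744 to 796 on the control arrays and at 523 and 34.6 on the *Mef2c*-deficient arrays (log2 fold change -2.51, limma adjusted p = 0.19), and *Ddx54* had a log2 fold change of -1.32. *Ddx56* (-0.49) and *Dhx33* (-0.37) also had groups that did not overlap, with smaller differences. The groups overlapped for *Ddx27* (-0.35), *Ddx31* (-0.85), *Ddx47* (-0.48), *Ddx50* (-1.16), *Ddx51* (0.004) and *Dhx37* (-1.18). After further quantile normalization or cyclic loess, 2 genes of the group fell and its median was -0.47 or -0.41.

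**Figure D3:**
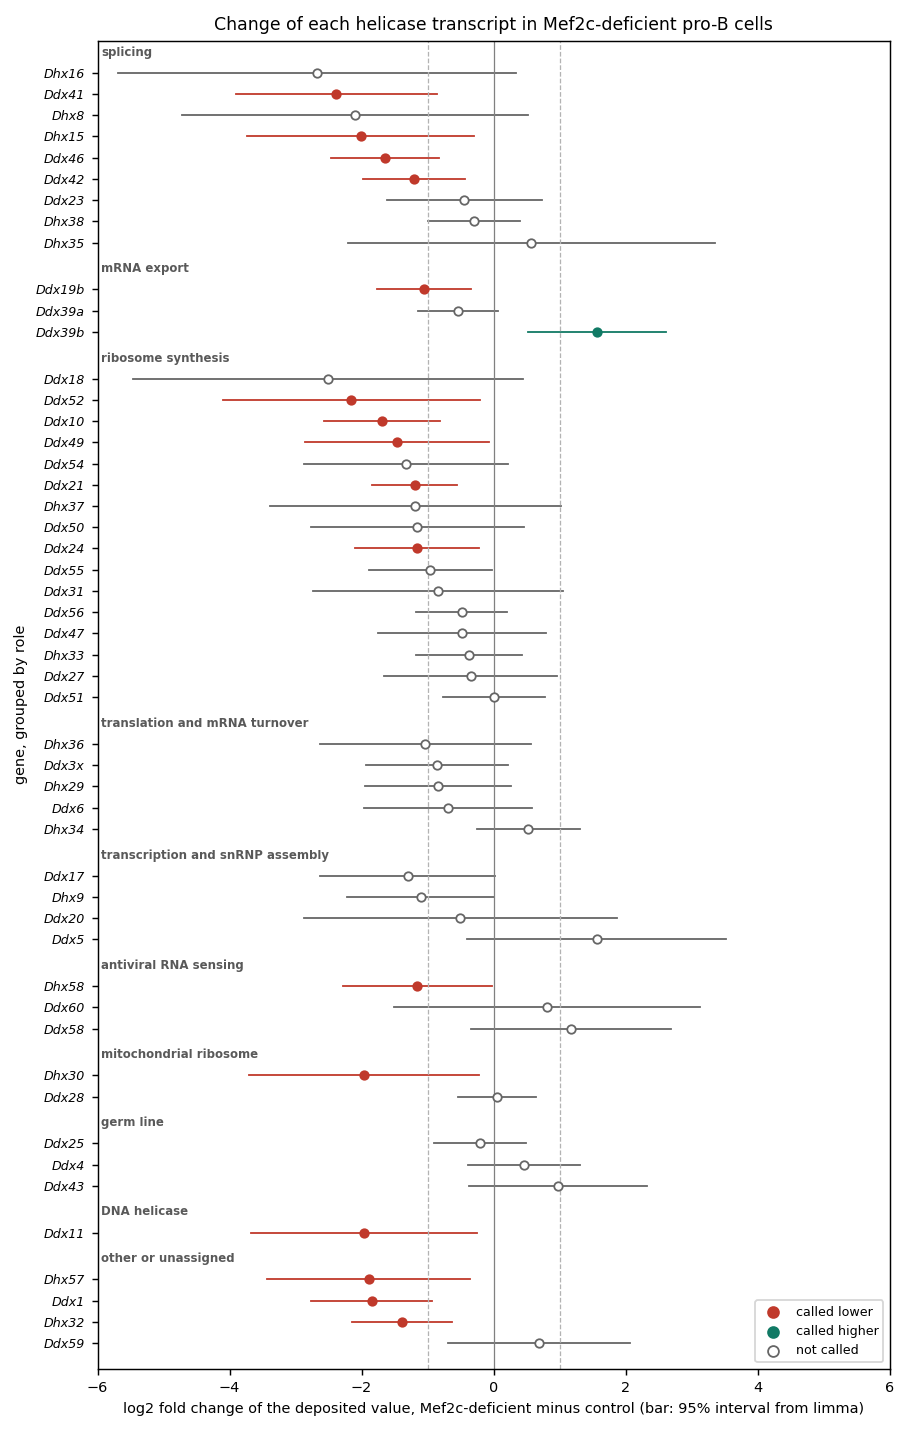
The log2 fold change of each helicase gene (x axis, *Mef2c*-deficient minus control, with its 95% interval from limma as a bar) is given by role. Dashed lines mark the fold threshold of 2. The 16 red points fell and the green point, *Ddx39b*, rose. Red points are 4 of 9 splicing and 5 of 16 ribosome synthesis helicases, and none of the 5 of translation and mRNA turnover. Of all genes 16.7% fell, or 26.4% when weighted by level as the family is, a weighting not matched to the single roles.

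None of the 5 helicases of translation and mRNA turnover was called, at a median log2 fold change of -0.84 that turned to 0.06 after cyclic loess. *Ddx3x*, which helps ribosomes start on structured mRNAs, had the smallest p of the group. It was at 51794, 47690 and 51894 on the control arrays and at 42344 and 18299 on the *Mef2c*-deficient arrays, below the controls on both but much more so on replicate 2 (-0.86, standard error 0.42, limma adjusted p = 0.21), and its sign was turned by cyclic loess (0.06). *Dhx36*, which unwinds G-quadruplexes, was within the control range on replicate 2 (4675) and below it on replicate 1 (1164, against 4675 to 4879 on the control arrays). *Dhx29*, which acts in scanning by the small subunit (-0.84), and *Ddx6*, the decapping activator of P bodies (-0.70), had overlapping groups. *Dhx34*, a nonsense-mediated decay factor, was at 1376 to 1516 on the control arrays and at 1660 and 2674 on the *Mef2c*-deficient arrays (0.52, limma adjusted p = 0.26).

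None of the 4 helicases of transcription and snRNP assembly was called either (median -0.81, but 0.06 after cyclic loess and 0.0066 with centring on housekeeping genes). *Dhx9*, RNA helicase A, which binds double-stranded RNA and bridges transcription factors to RNA polymerase II, missed the p threshold narrowly. It was at 84206, 55589 and 62914 on the control arrays and at 20939 and 45782 on the *Mef2c*-deficient arrays, both below all controls (2.15-fold lower, limma adjusted p = 0.16). *Ddx17* and *Ddx5* encode close relatives that act as coactivators and in microRNA processing. *Ddx17* was at 23554 to 64706 on the control arrays and at 18823 and 11995 on the *Mef2c*-deficient arrays (log2 fold change -1.30, limma adjusted p = 0.16). *Ddx5* was at 276, 276 and 111 and at 1210 and 298, so that its *Mef2c*-deficient arrays were above the controls but 4.06-fold apart (1.56, limma adjusted p = 0.21). The deposited table held a single probe set given to *Ddx5* alone, which was dim, and below the array median on 1 control array. *Ddx20*, the Gemin3 subunit of the SMN complex that builds spliceosomal snRNPs, was at 2357 to 2772 on the control arrays, at 628 on *Mef2c*-deficient replicate 1 and at 5390 on replicate 2.

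The cytosolic RNA sensors had mixed signs. *Dhx58*, which encodes LGP2, a regulator of RIG-I-like receptors without signalling domains of its own, fell from 242, 375 and 561 to 198 and 140. The groups were separate but near each other, and the p was just inside its threshold (2.23-fold lower, limma adjusted p = 0.15). Both *Mef2c*-deficient values were below their array medians. *Ddx58*, which encodes RIG-I itself, was at 71.0, 72.2 and 207 on the control arrays and at 182.4 and 289.2 on the *Mef2c*-deficient arrays, with overlap (1.17, limma adjusted p = 0.22). *Ddx60*, an interferon-induced helicase, was at 216 to 527 on the control arrays and at 233 and 1571 on the *Mef2c*-deficient arrays. Of the 8 genes listed for signalling downstream of these sensors, among them *Mavs*, *Tbk1* and *Irf3*, all were measured and none was called, with a median of -0.70 that turned to 0.14 after further quantile normalization, 0.17 after cyclic loess and 0.12 with centring on housekeeping genes.

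Of the remaining 10 genes, 5 fell, where 16.7% of all genes fell. *Dhx30*, needed to assemble mitochondrial ribosomes, was at 1818, 2775 and 1930 on the control arrays and at 1137 and 261 on the *Mef2c*-deficient arrays (log2 fold change -1.97, limma adjusted p = 0.13), whereas *Ddx28*, the other helicase with that role, was at 1323 on 4 arrays and at 1422 on *Mef2c*-deficient replicate 2. Such equal values on different arrays were deposited for 17 of the helicase genes (34.0%) and for 6932 of all genes. *Ddx11*, a DNA helicase of sister chromatid cohesion, was at 1273, 1622 and 1590 and at 180 and 801. Here *Mef2c*-deficient replicate 1 was the lower array, and below its array median (-1.97, limma adjusted p = 0.13). Beside *Ddx1*, the genes with no assigned role that fell were *Dhx32*, at 523, 430 and 664 and at 189 and 217 (2.62-fold lower, limma adjusted p = 0.091), and *Dhx57*, at 2786, 3274 and 4508 and at 1731 and 498 (3.72-fold lower, limma adjusted p = 0.12). The 2 *Mef2c*-deficient arrays were close for *Dhx32* and apart for *Dhx57*. The probe sets of *Ddx1* and *Dhx30* have names that end in x_at, and those of *Dhx57*, *Dhx9*, *Dhx38* and *Ddx3x* in s_at, endings the manufacturer gives to probe sets that may also bind related transcripts. *Ddx59* was at 1802 to 2527 on the control arrays and at 1891 and 5755 on the *Mef2c*-deficient arrays, and was not called.

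The 3 germ line helicases were not called (median 0.46, and -0.11 after cyclic loess). *Ddx43* had the smallest p, with 74.2, 68.8 and 55.1 on the control arrays, 223 on *Mef2c*-deficient replicate 1 and 74.2 on replicate 2, so that a single array stood out (0.97, limma adjusted p = 0.24). *Ddx4*, the mouse Vasa gene and a defining marker of germ cells, was at 6.26 to 13.2 on all 5 arrays. *Ddx25*, of the testis, was at 132 to 195.

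The 2 *Mef2c*-deficient arrays were far apart for many of the helicase genes. They were at least 4-fold apart for 12 of the 50 (24.0%), against 10.4% of all genes, while the highest and lowest control arrays were that far apart for 1 helicase gene (2.0%), against 3.95% of all genes. Replicate 1 was the lower array for 22 genes and replicate 2 for 28. Without *Mef2c*-deficient replicate 1 the family's median log2 fold change was -0.98, and that of all genes was 0.04. Without replicate 2 they were -0.79 and -0.0086. These 2 settings compare a single *Mef2c*-deficient array with the controls and assume that it varies as they do. The helicase genes that fell with either of these arrays left out were *Ddx1*, *Ddx10*, *Ddx21*, *Ddx41*, *Ddx42*, *Ddx46* and *Dhx32*. With 1 control array left out instead, 9, 9 and 8 helicase genes fell without control replicates 1, 2 and 3. These were 18%, 18% and 16% of the family, where 11.2%, 12.5% and 11.6% of all genes fell. *Ddx1*, *Ddx10*, *Ddx21*, *Ddx41*, *Ddx42*, *Ddx46* and *Dhx32* fell whichever of the 5 arrays was left out.

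The scaling of the arrays changed how many helicase genes passed. After a further quantile normalization 7 fell (14%) and 3 rose, where 8.57% of all genes fell and 7.93% rose. After cyclic loess 6 fell (12%) and 3 rose, where 8.35% of all genes fell and 6.75% rose. The genes that rose under both were *Ddx39b*, *Ddx59* and *Dhx34*. With each array centred on its median, 24 fell (48%) and 1 rose, where 24.1% of all genes fell and 6.16% rose. With each array centred on 9 housekeeping genes, the all-gene median moved from 0.04 to 0.85 on the log2 scale. There 2 of the 50 helicase genes fell (4%, *Ddx1* and *Ddx41*) and 7 of the 50 rose. Of all genes 3.67% fell and 42.4% rose. The family median stayed negative under these 4 scalings, at -0.38, -0.24, -1.23 and -0.19.

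**Figure D4:**
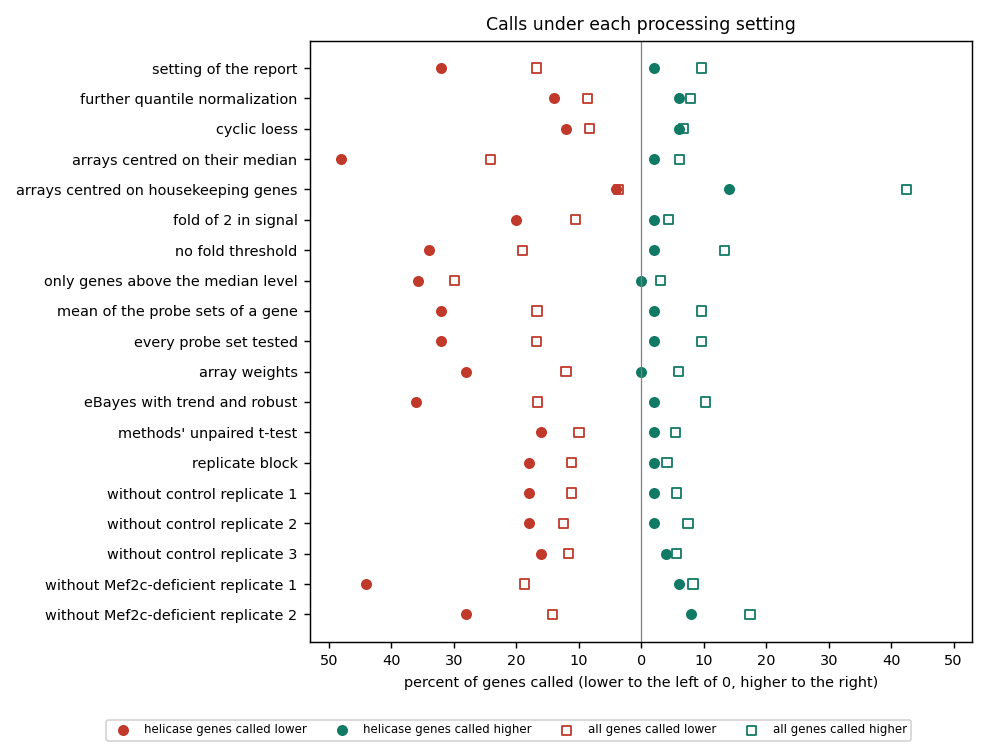
The percent of the helicase genes (filled circles) and of all genes (open squares) called lower (left of 0, red) and higher (right of 0, green) is given for the setting of the report and the 18 others. The share of helicase genes that fell ran from 4% with centring on housekeeping genes to 48% with centring on the array median, and under every setting it was above that of all genes, by little in the first of these. The squares are not matched to the helicase genes by level. With such a weighting 26.4% of all genes fell in the setting of the report, and among genes above the median level 29.9% fell, next to 35.7% of the helicase genes there.

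Partners of the helicases were read from 7 lists. Among RNA helicases under other names 5 of 17 measured fell and 1 rose (median -0.60, and 0.21 with centring on housekeeping genes). The counts were 1 and 3 after further quantile normalization, 1 and 1 after cyclic loess, and 1 and 4 with centring on housekeeping genes. *Mtrex*, the helicase of the nuclear exosome, was at 11319 to 17142 on the control arrays and at 5893 and 3151 on the *Mef2c*-deficient arrays, and *Snrnp200*, which unwinds U4 from U6 in the spliceosome, was at 48690 to 72466 and at 27420 and 17418 (log2 fold change -1.69 and -1.47, limma adjusted p = 0.094 for both). *Ifih1*, which encodes the RNA sensor MDA5, was the gene of this list that rose (2.13-fold, limma adjusted p = 0.14), and it is named here after its value was seen. Of 15 measured cofactors of DEAD and DEAH box proteins, 7 fell (median -1.27). *Gle1*, which activates DDX19B at the nuclear pore, was at 82.5 to 118 and at 13.5 and 27.3 (log2 fold change -2.34, limma adjusted p = 0.0895), with all 5 values below the array median, and *Zgpat*, a G-patch protein that binds DHX15, was at 1664 to 3284 and at 655 and 660 (-1.77, limma adjusted p = 0.091).

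Of 7 measured exon junction and nonsense-mediated decay genes 5 fell (median -1.79), among them the kinase gene *Smg1*, from 6240 to 7828 on the control arrays to 2375 and 1408 on the *Mef2c*-deficient arrays (3.82-fold, limma adjusted p = 0.0895), and *Rnps1*, from 47046 to 85002 to 26447 and 25643 (2.36-fold, limma adjusted p = 0.10). Of 11 measured THO and mRNA export genes, the partners of DDX39B, 5 fell (median -0.95, and 0.06 after cyclic loess). *Thoc1* was at 864 to 1320 on the control arrays and at 191 and 54.1 on the *Mef2c*-deficient arrays, both under the array median (10.3-fold lower, limma adjusted p = 0.0895), and *Thoc5* was at 5527 to 7065 and at 2710 and 2688 (2.38-fold lower, limma adjusted p = 0.091). Of 6 measured SMN complex genes, the partners of DDX20, 5 fell (median -1.61), with *Strap* at 5742 to 7218 and at 2163 and 2314 (2.96-fold lower, limma adjusted p = 0.0895) and *Gemin5* at 3611 to 3914 and at 1177 and 1588 (2.77-fold lower, limma adjusted p = 0.0895). Of 9 measured decapping genes and DDX6 partners, 4 fell (median -1.23), with *Eif4enif1* at 5549 to 6333 and at 2922 and 1914 and *Patl1* at 2984 to 3824 and at 605 and 1935. None of the genes on these 4 lists rose. Over all genes 16.7% fell, and in the level groups these genes lie in the share was higher, at 30.8%, 32.0%, 34.6% and 31.6% for the 4 lists in the order given in this paragraph. For the RNA helicases under other names it was 26.1% and for the cofactors 26.7%. After cyclic loess, 1, 3, 3, 1, 1 and 1 genes of the 6 lists that held a call fell, in the order given here.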

How the data were processed

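Total RNA of sorted pro-B cells was hybridised to Affymetrix Mouse Genome 430 2.0 arrays. The deposited values are intensities that the authors background adjusted, quantile normalized and summarized by robust multiarray averaging (RMA). Per the submitters' processing notes RMA and limma were used, with versions not given in the sources used here, and per the study's methods the authors dropped from their analysis probes called absent or marginal in more than 4 replicates. Their natural logarithms run from 1.15 to 14.7, as RMA log2 signals do, and 314 to 430 values per array exceed 65535, the highest signal of a 16-bit scanner. The deposited table held 23835 probe sets, of which 17623 had 1 gene symbol in the platform annotation, 516 had several and 5696 had no listed gene. All 50 helicase symbols were found in RefSeq.

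The 17325 genes with 1 symbol, each by its probe set with the highest mean log2 value, were fitted with limma 3.58.1 in R 4.3.3 on the log2 deposited values, over 3 control and 2 *Mef2c*-deficient arrays with no covariates. P-values were adjusted by Benjamini-Hochberg over all genes. The 21 genes named by rule are every helicase gene called and those next to a threshold. They also hold the gene with the smallest p in each role group without a call. From each list of partners the rule takes the 2 called genes with the smallest p. The remaining helicase genes were described with their role groups, outside this rule. The members, roles, lists and markers were chosen with earlier results of these data known. The fit was tested on simulated data. The alternatives were 2 further normalizations, 2 centrings, another fold threshold or none, a filter on dim genes, other uses of probe sets, array weights, robust eBayes, the methods' t-test, a replicate block, and each array left out. Housekeeping centring used 9 genes. A search of protein motifs was not run. The number of arrays limits the precision.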

Additional observations from a re-analysis of the deposited data

How the results depend on the processing

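Of 21 named genes, 2 kept their direction and call under every setting run, *Ddx1* and *Ddx41*. The other uses of probe sets left the values of the helicase genes as they were, and dropping the fold threshold cannot remove a call. The number of helicase genes that fell was 16, and it was 7 after further quantile normalization, 6 after cyclic loess, 2 with centring on housekeeping genes, 10 at a fold of 2 in signal, 8 with the methods' t-test at its unadjusted threshold (0 after Benjamini-Hochberg adjustment, where 12 of all genes passed) and 8 to 22 when 1 array was left out. The number that rose was 1, and it was 3 after further quantile normalization, 3 after cyclic loess, 7 with centring on housekeeping genes, 0 with the filter on dim genes, which removes *Ddx39b*, 0 with array weights and 1 to 4 when 1 array was left out. The median log2 fold change was -0.997, and it was -0.38 after further quantile normalization, -0.24 after cyclic loess, -1.23 with centring on the array median, -0.19 with centring on housekeeping genes, -0.90 with array weights and -0.988 to -0.79 when 1 array was left out. *Ddx3x* turned to 0.059 after cyclic loess. With replicate number as a block, which drops control replicate 3, 9 genes fell, 1 rose (*Ddx58*) and the median was -0.88. The labels do not say that replicate numbers pair the arrays, and the deviations of same-numbered arrays correlated at 0.12 and -0.01. Deviations were taken from the group mean, so those of the 2 *Mef2c*-deficient arrays mirror each other. These correlations therefore cannot decide whether the arrays are paired. Of all genes 9.99% fell and 5.52% rose with the methods' t-test at its unadjusted threshold, and 11.2% fell and 4.13% rose with the block. The cause of the changes between settings was not tested.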
